A study of Mus musculus with 12 samples.

Results

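The Hedgehog ligands and response genes were read as 9 named genes of the 38924 genes in the count tables. They are the ligands Shh and Ihh, the ligand exporter Disp1, the receptor Ptch1, the signal transducer Smo, the decoy receptor Hhip and the transcription factors Gli1, Gli2 and Gli3. The series holds 12 RNA-seq libraries from cells that were sorted out of E7.25 mouse embryos, which are gastrulating at that stage. All embryos came from 1 line, in which the Foxa2 locus drives Cre recombinase and Cre switches on a yellow fluorescent protein (YFP) at Rosa26, so a cell fluoresces if it or its ancestors used Foxa2. The 4 sorted types, with 3 libraries each and no treatment, were cardiac mesoderm with YFP (labelled ventricular), cardiac mesoderm without YFP (labelled non-ventricular), EPCAM+ endoderm and KDR+ hematopoietic mesoderm. Whether the 3 libraries of a type came from separate embryos or litters is not in the labels, so each p-value measures only the spread between libraries. In the fit reported, that spread was estimated within types over all 12 libraries, so the p-value of a pair also depends on the types outside it.

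Hedgehog proteins are lipid-modified signals that leave the cell with the help of the Dispatched transporter and carriers of the SCUBE family. Without ligand the receptor Patched1 holds Smoothened inactive, and the GLI proteins, above all GLI3, are trimmed into repressors at the primary cilium. With ligand Smoothened is released and full-length GLI proteins turn on targets that include Ptch1, Gli1 and Hhip, so these transcripts are widely read as a sign of response. In the gastrulating mouse embryo, Ihh is known from the visceral endoderm and Shh from the node and the midline tissue it gives rise to.

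Gene counts totalled 4472800 to 7888631 per library, which was 18.3% to 21.5% of the tallied reads, and 3 counts corresponded to 0.380 to 0.671 counts-per-million units (CPM) before scaling. The CPM values given from here on are scaled by trimmed means (TMM). This floor covers counting error only, since copies of an amplified molecule are counted separately. The labelled types carried their markers. Over 6 definitive endoderm genes the summed level was 908.7 to 1166 CPM in endoderm and 28.3 to 117.1 CPM in YFP-positive cardiac mesoderm. Epcam, whose protein labels the sorted endoderm, made up 240.2, 203.7 and 217.1 CPM of the endoderm sum in replicates 1 to 3. Foxa2 itself was at 52.3 to 62.3 CPM in endoderm, at 0 to 5.92 CPM in YFP-positive and at 0 in YFP-negative cardiac mesoderm. Over 7 cardiac mesoderm genes the sum was 1338 to 1722 CPM in the 6 cardiac libraries and 114.2 to 183.5 CPM in endoderm. Hematopoietic replicate 3 stood apart in its type, with a cardiac sum of 1703 CPM against 810.4 and 987.7 CPM and a hematopoietic sum over 7 genes of 1084 CPM against 1638 and 1810 CPM. Kdr, whose protein this type was sorted on, made up 664.7, 700.0 and 964.8 CPM of its cardiac sum in replicates 1 to 3. The Kdr mean was higher in hematopoietic mesoderm (776.5 CPM) than in YFP-positive (539.9 CPM) and YFP-negative cardiac mesoderm (491 CPM).

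Ptch1 and Gli3 are the members whose libraries separated YFP-negative cardiac mesoderm from endoderm and from hematopoietic mesoderm, and the 250 bases before a RefSeq start of each (assembly GRCm38.p6) are shown for that reason, 5′ to 3′ on the gene's strand, with the letters GGGCGG or their reverse complement, the core of the GC box, in capitals. The Ptch1 window, chr13:63565736-63565985 on the minus strand, lies inside the annotated Ptch1 gene, before one of its internal starts, and overlaps no annotated exon. The Gli3 window, chr13:15463473-15463722 on the plus strand, lies inside the annotated Gli3 gene and overlaps an exon of Gm6556 on the opposite strand.
Ptch1: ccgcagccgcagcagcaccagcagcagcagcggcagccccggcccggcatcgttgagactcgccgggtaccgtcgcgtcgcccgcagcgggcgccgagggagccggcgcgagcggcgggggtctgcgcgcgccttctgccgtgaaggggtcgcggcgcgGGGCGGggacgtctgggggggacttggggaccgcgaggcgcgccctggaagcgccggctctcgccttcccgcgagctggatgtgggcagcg
Gli3: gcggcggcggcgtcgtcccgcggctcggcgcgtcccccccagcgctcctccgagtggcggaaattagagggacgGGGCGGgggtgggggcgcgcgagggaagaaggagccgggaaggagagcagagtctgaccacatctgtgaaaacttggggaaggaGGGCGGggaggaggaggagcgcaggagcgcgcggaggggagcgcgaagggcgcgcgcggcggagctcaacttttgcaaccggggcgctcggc
The Ptch1 window held 1 such box, 91 bases before the start, and had a GC content of 78.4%. The Gli3 window held 2, at 176 and 92 bases, and had a GC content of 72.8%. Among 32851 promoter windows of the same length, 32.7% held at least 1 box on either strand, and the median GC content was 52.4%. The GLI consensus GACCACCCA was searched on both strands in the windows of the 7 members that the RefSeq table lists. None of those windows held it exactly or with 1 mismatch, against 0.225% and 5.79% of all windows. A match or its absence describes the letters of this window and no more.

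The ligands were at or near 0 outside single libraries. Shh (chromosome 5, 28456815 to 28467256, minus strand) had 70, 2 and 2 counts in endoderm, or 11.1, 0.259 and 0.238 CPM. In YFP-positive cardiac mesoderm it had 0, 0 and 1 counts, and the 6 libraries of the other two mesoderm types had 0, which allows up to 3 counts in each. Endoderm replicate 1 therefore held 70 of the 75 Shh counts of the series. Of the node and notochord genes, Noto, T, Foxj1 and Chrd were highest in endoderm replicate 2, Foxa2 in replicate 3 and Nog in replicate 1. Noto was at 13.5, 25.4 and 10.6 CPM and Chrd at 49.1, 83.4 and 66.1 CPM in replicates 1 to 3. The sum over the 6 genes was 400.6, 492.6 and 302.3 CPM, of which T made up 195.8, 227.7 and 105.3 CPM. The visceral endoderm sum was 2274, 595.3 and 1236 CPM and the definitive endoderm sum 1166, 954.3 and 908.7 CPM. The part of other cells in the Shh counts was not tested. Shh shares exon bases with 9530036O11Rik and Gm26894 on the opposite strand, and the strand setting of the counting is not given in the sources used here, so these counts cannot be assigned to Shh alone.

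Ihh (chromosome 1, 74945315 to 74951672, minus strand) had 340, 0 and 0 counts in YFP-positive cardiac mesoderm, or 70.8 CPM in replicate 1. It had 2, 0 and 0 counts in YFP-negative cardiac mesoderm, 4, 0 and 3 in endoderm, and 0 in all 3 hematopoietic libraries. Of its 349 counts, 340 came from 1 library, and that library is not of the type for which Ihh is best known. Visceral endoderm markers were plentiful where Ihh was nearly absent. The sum over 6 of them (Ttr, Afp, Apoa1, Amn, Cubn and Hnf4a) was 595.3 to 2274 CPM in endoderm and 13.3 CPM in the YFP-positive library with Ihh, against 3.83 and 14.1 CPM in the other two of its type. Over the 6 definitive endoderm genes the sum in these libraries was 76.8 CPM, against 28.3 and 117.1 CPM. Sox17 was the only one of these genes to be highest in the library with Ihh, at 33.5 CPM against 0 and 1.67 CPM. Foxa2, Foxa1, Cer1, Trh and Epcam were all highest in replicate 3. Cer1, for instance, was at 31.2, 10.4 and 67.7 CPM in replicates 1 to 3. Genes seen in 1 library of a type and missing from both others were counted beside Ihh. Of 9248 genes that reached 100 counts in some YFP-positive library, 269 (2.91%) had 3 counts or fewer in both others, as did 366 of 8922 (4.10%) in hematopoietic mesoderm, 84 (0.887%) in YFP-negative cardiac mesoderm and 11 (0.112%) in endoderm. The part of this in the Ihh value was not tested. Neither ligand passed the expression filter, so neither was tested, and a mean over 3 libraries describes neither of them. The other mammalian ligand, Dhh, had 0 counts in all 12 libraries.

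**Figure D1:**
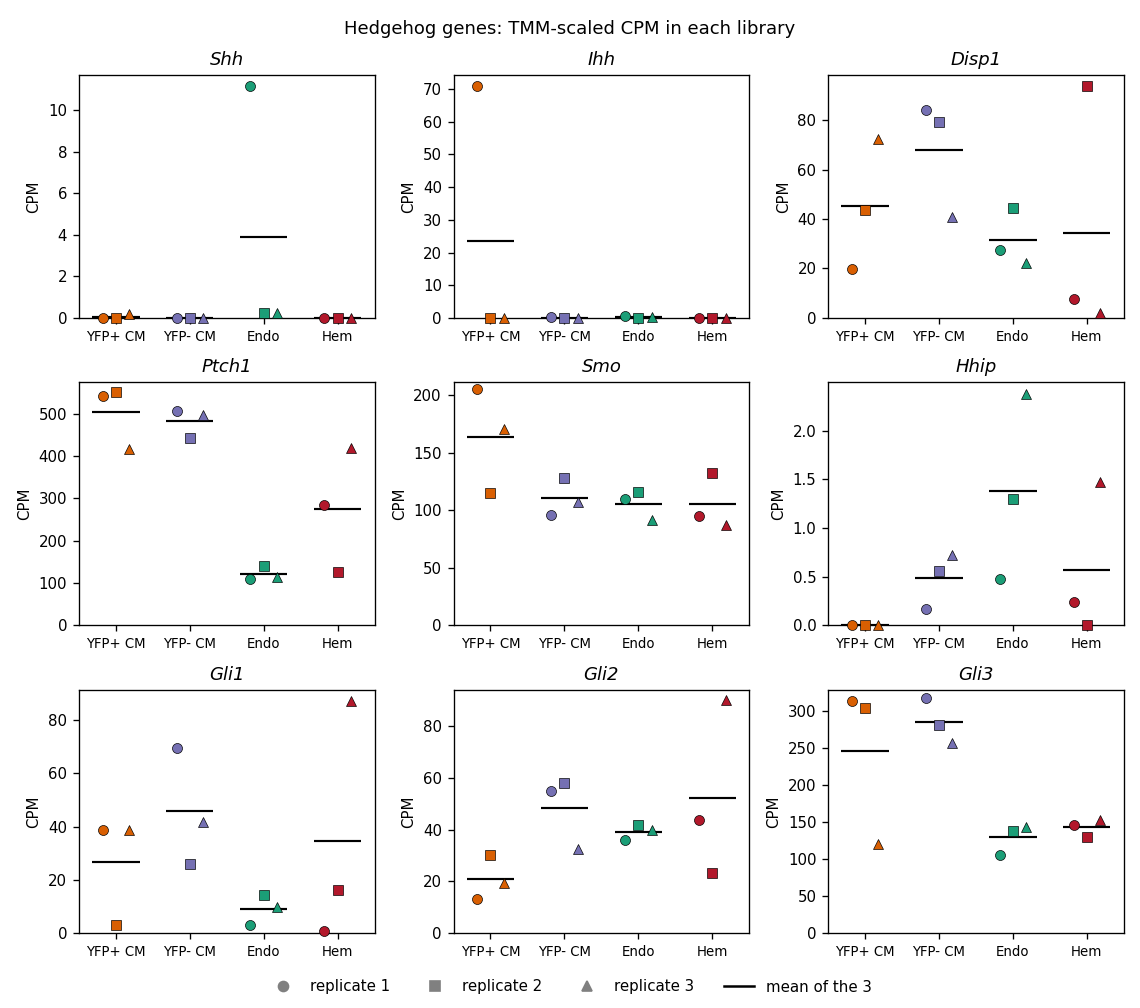
TMM-scaled CPM of each of the 9 Hedgehog genes (vertical axis, linear, with a scale of its own for each gene) in the 12 libraries, by cell type: YFP-positive and YFP-negative cardiac mesoderm (YFP+ CM, YFP- CM), endoderm (Endo) and hematopoietic mesoderm (Hem). Each symbol is a library and each bar the mean of 3; Ptch1 separates both cardiac types from endoderm, whereas Shh and Ihh each rest on 1 library.

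Disp1 moves finished ligand out of the producing cell (chromosome 1, 183086266 to 183221522, minus strand). Its levels were 20.0, 43.7 and 72.4 CPM in YFP-positive cardiac mesoderm and 84.0, 79.2 and 40.7 CPM in YFP-negative cardiac mesoderm. They were 27.4, 44.4 and 22.3 CPM in endoderm, and 7.47, 93.7 and 1.89 CPM in hematopoietic mesoderm. The ranges of all 4 types overlapped, and the hematopoietic libraries alone spanned both the highest and the lowest value. The lowest adjusted p of Disp1 over the 6 pairs of types was 0.694 (edgeR's quasi-likelihood test, Benjamini-Hochberg over all 14170 genes tested, threshold 0.05, used throughout).

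Among the other genes of ligand making and release, 4 of 6 were tested and 1, Scube2, passed in any pair, beside 6.82% of all genes tested. Scube2 encodes a secreted carrier that helps release Hedgehog from the cell surface. Its levels were 172.7, 229.8 and 136.3 CPM in hematopoietic mesoderm, 2.08, 0.911 and 0.370 CPM in YFP-positive cardiac mesoderm, 8.38, 0.560 and 0.290 CPM in YFP-negative cardiac mesoderm, and 0.318, 0.129 and 0.475 CPM in endoderm. All 3 hematopoietic libraries lay far above the 9 others. The log2 difference of Scube2 from hematopoietic mesoderm was -7.31 ± 1.24 (SE) in YFP-positive cardiac mesoderm (adjusted p = 0.0137), -5.87 ± 1.14 in YFP-negative cardiac mesoderm (0.0382) and -9.09 ± 1.35 in endoderm (0.00243). The first was lost without YFP-positive replicate 2 or 3 (up to 0.051), and the third passed in every fit run. The second did not pass when only the 2 types were fitted (adjusted p = 0.17), and it was lost in 7 of the 12 fits without 1 library. Scube1 had its highest values in YFP-negative cardiac mesoderm (17.4, 26.9 and 30.0 CPM, against 0, 7.47 and 4.63 CPM in the YFP-positive type), with a lowest adjusted p of 0.205 over the pairs. That was for the YFP-negative type against endoderm, where DESeq2 gave 0.00766, limma voom 0.000454 and the fit of only the 2 types 0.00359. Scube3 and Hhat, the enzyme that attaches palmitate to the ligand, reached at most 28.4 and 11.9 CPM in any library, and their lowest adjusted p-values were 0.736 and 0.132. For Hhat, DESeq2 gave 0.0417 between endoderm and hematopoietic mesoderm and 0.0432 between the YFP-positive type and hematopoietic mesoderm. Disp2 had 5 counts, all in 1 library.

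Ptch1, the receptor and the best expressed member, was higher in both cardiac mesoderm types than in endoderm (chromosome 13, 63508328 to 63573598, minus strand). Its levels were 542.8, 552.1 and 416.4 CPM in YFP-positive cardiac mesoderm and 506.4, 442.2 and 497.0 CPM in YFP-negative cardiac mesoderm. They were 110.1, 140.2 and 113.9 CPM in endoderm, and 284.3, 125.0 and 418.8 CPM in hematopoietic mesoderm. Every cardiac library lay above every endoderm library, while the hematopoietic libraries ran from inside the endoderm range to just inside the YFP-positive range. In bulk samples such as these, fewer cells with a transcript and less of it in each cell cannot be told apart.

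Against endoderm, Ptch1 was 4.15-fold higher in YFP-positive cardiac mesoderm, a log2 difference of 2.05 ± 0.32 (SE, adjusted p = 0.00598). Ptch1 was higher in 3 of 3 same-numbered pairs of libraries, as must follow where no libraries overlap. It was the only member of the 6 tested that passed in that comparison, where 1.54% of all genes did and 0.953% did so with a higher level in the cardiac type. DESeq2 and limma voom also passed Ptch1 alone of the members, beside 6.52% and 7.97% of all genes. In YFP-negative cardiac mesoderm Ptch1 was 3.97-fold higher than in endoderm, a log2 difference of 1.99 ± 0.32 (adjusted p = 0.00741), again in 3 of 3 pairs and again as the only member to pass, against 1.31% of all genes (0.706% higher). DESeq2 added Gli3, beside 4.26% of all genes, and limma voom Gli3 and Gli1, beside 12.8%. Both comparisons use the same endoderm libraries. Each passed in all 7 other fits and in 10 of the 12 fits without 1 library, and was lost without endoderm replicate 1 or 3, with adjusted p-values up to 0.0572 and 0.0663.

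The cardiac types themselves did not differ detectably in Ptch1. Their means were 503.7 ± 75.8 and 481.9 ± 34.7 CPM (SD, n = 3), a log2 difference of 0.06 ± 0.31 (adjusted p = 1), and no member passed between them. None of the 6 had an unadjusted p under 0.05 and none passed with DESeq2 or limma voom. For all genes in that comparison the share that passed was 0%, the share with an unadjusted p under 0.05 was 7.49%, and DESeq2 passed 100 genes (0.706%) and limma voom 0 (0%).

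Hematopoietic mesoderm lay between cardiac mesoderm and endoderm in Ptch1, with a mean of 276.0 ± 147.0 CPM. Endoderm was lower than hematopoietic mesoderm by a log2 difference of -1.18 ± 0.32 (adjusted p = 0.0465), in 2 of 3 same-numbered pairs, and Ptch1 was the only member to pass, against 5.65% of all genes (2.42% lower in endoderm). DESeq2 passed it too (0.00701), beside 13.2% of all genes. That call was lost with the replicate number as a block (adjusted p = 0.0894), with RLE scaling, with limma voom (0.202, beside 8.65% of all genes), with only the 2 types (0.138), and in 11 of the 12 fits without 1 library, all but the one without hematopoietic replicate 2. YFP-positive cardiac mesoderm exceeded hematopoietic mesoderm by 0.87 ± 0.31 (adjusted p = 0.163) and YFP-negative cardiac mesoderm by 0.80 ± 0.31 (0.215), so no member passed in either, against 1.79% and 0.593% of all genes. At an unadjusted p under 0.05 there were 4 members in the first and 2 in the second, beside 19.5% and 17.4% of all genes. DESeq2 passed 0 and 1 of them, beside 10.5% and 7.49% of all genes, and limma voom 0 and 0, beside 0.127% and 0.67%. Without hematopoietic replicate 3, the library with the high cardiac marker sum, the mean of the type was 204.7 CPM, the first difference was 1.31 (adjusted p = 0.0319), the second 1.24 (0.0528), and the difference between endoderm and hematopoietic mesoderm was -0.75 (0.134).

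**Figure D2:**
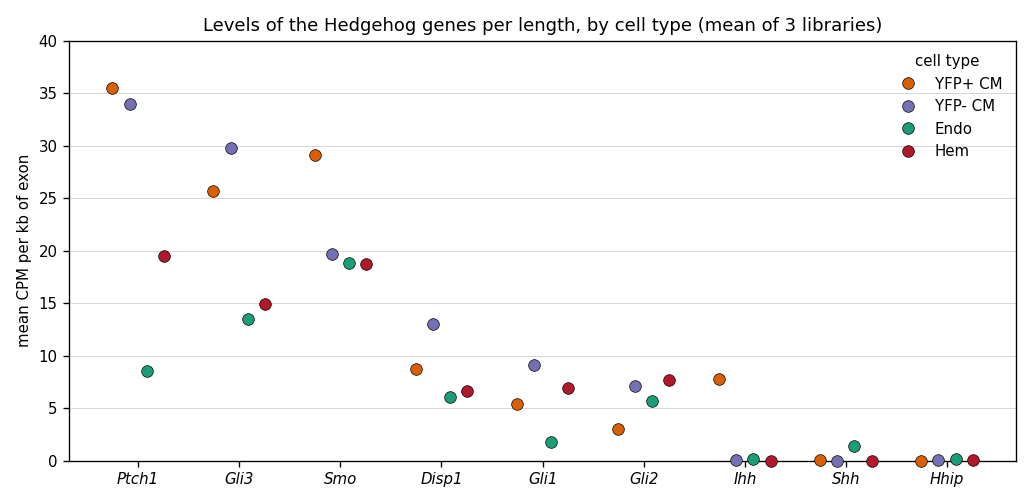
Mean level of each member in CPM per kilobase of exon (vertical axis) in the 4 cell types, 3 libraries each. Per length, Ptch1 leads in both cardiac types (35.5 and 34.0), Smo leads in endoderm (18.8), and Shh and Hhip stay near 0.

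Smo, the membrane protein that Ptch1 restrains, had the smallest ratio of highest to lowest type mean among the 6 tested members, 1.56 against 2.17 to 5.08 (chromosome 6, 29735503 to 29761365, plus strand). Its levels were 205.6, 115.4 and 170.4 CPM in YFP-positive cardiac mesoderm, and 95.7, 128.5 and 107.3 CPM in YFP-negative cardiac mesoderm. In endoderm they were 109.6, 116.0 and 91.8 CPM, and in hematopoietic mesoderm 95.4, 133.0 and 87.6 CPM. The YFP-positive mean of 163.8 ± 45.5 CPM was the highest, but replicate 2 of that type lay within the range of each other type. The log2 differences of YFP-positive cardiac mesoderm were 0.57 ± 0.29 over the YFP-negative type (adjusted p = 0.696), 0.63 ± 0.29 over endoderm (0.304) and 0.64 ± 0.29 over hematopoietic mesoderm (0.246). Per kilobase of exon Smo stood at 29.1, 19.7, 18.8 and 18.7 CPM in the 4 types in that order. In endoderm this put Smo above Ptch1, at 8.56 CPM per kilobase, whereas in the cardiac types Ptch1 stood above Smo.

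Hhip, a membrane protein that binds and holds ligand, was barely detected (chromosome 8, 79965851 to 80058006, minus strand). It had 0 counts in all YFP-positive libraries, 1, 4 and 5 in YFP-negative cardiac mesoderm, 3, 10 and 20 in endoderm, and 1, 0 and 7 in hematopoietic mesoderm. It did not pass the filter and was not tested. The highest type mean of Hhip was in endoderm and that of Ptch1, also a known target, in YFP-positive cardiac mesoderm. With so few Hhip counts its order of types is not settled. Its endoderm range (0.477 to 2.38 CPM) overlapped those of YFP-negative cardiac mesoderm (0.168 to 0.724 CPM) and hematopoietic mesoderm (0 to 1.47 CPM). Hhip shares exon bases with Gm27820 on the opposite strand.

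Of 5 other genes of reception, all were tested and 1, Cdon, passed in any pair, beside 6.82% of all genes tested. Cdon, a co-receptor, was at 100.4, 130.0 and 94.5 CPM in endoderm and at 1.20, 25.3 and 21.0 CPM in hematopoietic mesoderm, a log2 difference of 2.77 ± 0.72 (adjusted p = 0.043, and 0.0662 with the replicate block). It was also lost when only the 2 types were fitted (0.121) and in 10 of the 12 fits without 1 library, among them all 6 that left out a cardiac library. In the cardiac types it ran from 63.1 to 113.2 CPM. Gas1, a second co-receptor, followed Ptch1 in its order of types, with 30.1 to 127.8 CPM in YFP-positive, 40.4 to 65.7 CPM in YFP-negative cardiac mesoderm, 15.9 to 22.7 CPM in hematopoietic mesoderm and 8.91 to 19.0 CPM in endoderm. Its lowest adjusted p was 0.0649, for YFP-positive cardiac mesoderm against endoderm, where DESeq2 gave 0.000553 and limma voom 0.0179. For the YFP-negative type against endoderm the adjusted p was 0.137, with 0.0114 from DESeq2 and 0.00615 from limma voom, and for the YFP-positive type against hematopoietic mesoderm it was 0.109, with 0.00643 from DESeq2.

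Boc, a co-receptor related to Cdon, was at 48.7, 6.74 and 3.89 CPM in YFP-positive and 24.3, 40.8 and 36.8 CPM in YFP-negative cardiac mesoderm. It was at 2.07, 5.44 and 7.61 CPM in endoderm and at 0, 0 and 2.31 CPM in hematopoietic mesoderm, with a lowest adjusted p of 0.143. All YFP-negative libraries lay above all endoderm and all hematopoietic libraries, as they did for 12.2% and 11.8% of all genes in each comparison. Against hematopoietic mesoderm DESeq2 gave Boc an adjusted p of 0.00143 for the YFP-negative and 0.00668 for the YFP-positive type. For the YFP-negative type against endoderm (0.611) limma voom gave 0.00584 and the fit of only the 2 types 0.0229. Gpc3, a proteoglycan that binds ligand, ran from 170.4 to 494.1 CPM over all libraries with a lowest adjusted p of 0.137. Lrp2, an endocytic receptor, was at 73.0 to 231.6 CPM in endoderm and reached 52.5 CPM elsewhere, with a lowest adjusted p of 0.177, and 0.00722 for the YFP-negative type against endoderm when only the 2 types were fitted.

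**Figure D3:**
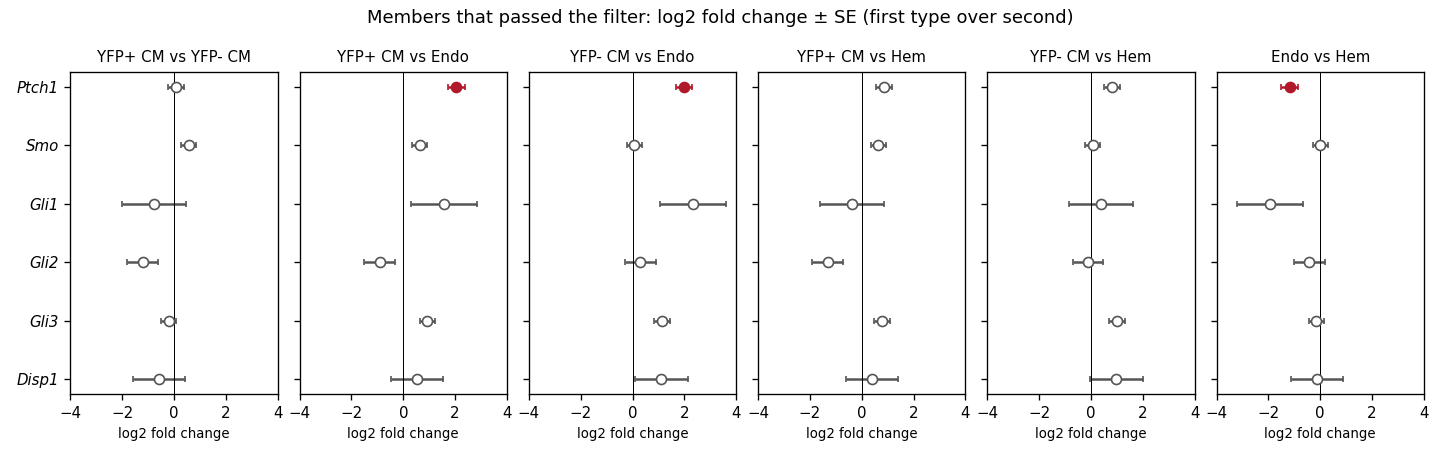
Log2 fold change with its standard error (horizontal axis) of the 6 members that passed the filter, in the 6 pairs of cell types, from edgeR's fit over 12 libraries; values above 0 are higher in the first-named type. Filled red points passed at an adjusted p of 0.05, and these are the 3 Ptch1 differences that involve endoderm, except that the one against hematopoietic mesoderm (Hem) was lost in several other fits.

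Gli1, the factor whose transcription depends most directly on the signal, was low and variable (chromosome 10, 127329882 to 127341974, minus strand). Its levels were 38.7, 2.92 and 38.7 CPM in YFP-positive cardiac mesoderm, and 69.4, 25.9 and 41.7 CPM in YFP-negative cardiac mesoderm. In endoderm they were 2.86, 14.2 and 9.86 CPM, and in hematopoietic mesoderm 0.723, 16.1 and 87.2 CPM. All YFP-negative libraries lay above all endoderm libraries, as Ptch1 did, but YFP-positive replicate 2, with a high Ptch1, had a Gli1 level inside the endoderm range. Against endoderm the log2 difference was 2.34 ± 1.29 for YFP-negative (adjusted p = 0.654, and 0.0349 with limma voom) and 1.57 ± 1.26 for YFP-positive cardiac mesoderm (0.663). In this fit these standard errors exceeded the 0.32 of Ptch1. Gli1 shares exon bases with Arhgap9 and Gm47200.

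Gli2, a main activator among the GLI proteins, was lowest in YFP-positive cardiac mesoderm (chromosome 1, 118834132 to 119053619, minus strand). It was at 13.1, 30.3 and 19.4 CPM there and at 55.0, 58.1 and 32.3 CPM in YFP-negative cardiac mesoderm. It was at 35.9, 41.8 and 39.8 CPM in endoderm and at 43.8, 23.0 and 90.3 CPM in hematopoietic mesoderm. The YFP-positive libraries lay below all YFP-negative and all endoderm libraries, and this made Gli2 the only one of 6 tested members whose libraries did not overlap between the cardiac types, against 12.1% of all genes. The log2 differences of YFP-positive cardiac mesoderm were -1.21 ± 0.60 from the YFP-negative type (adjusted p = 0.689), -0.90 ± 0.60 from endoderm (0.552) and -1.32 ± 0.60 from hematopoietic mesoderm (0.249), and none passed.

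Gli3, the main source of GLI repressor, was highest in cardiac mesoderm apart from 1 library (chromosome 13, 15463235 to 15730026, plus strand). Its levels were 313.2, 303.6 and 120.5 CPM in YFP-positive cardiac mesoderm, and 317.7, 281.2 and 256.1 CPM in YFP-negative cardiac mesoderm. They were 105.6, 137.9 and 143.2 CPM in endoderm, and 145.3, 129.9 and 152.9 CPM in hematopoietic mesoderm. All cardiac libraries but 1 exceeded every library of the other two types, and YFP-positive replicate 3 lay inside the endoderm range. That library also had the lowest Ptch1 and the lowest Foxf1 (56.3 against 154.8 and 161.1 CPM) of its type, and the highest epiblast marker sum, 72.7 against 4.37 and 14.6 CPM. Its cardiac marker sum, 1704 CPM, lay between those of replicates 1 and 2 (1648 and 1722 CPM). The part of these in its Gli3 level was not tested.

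The Gli3 difference from endoderm was 1.14 ± 0.30 on the log2 scale for YFP-negative cardiac mesoderm, or 2.21-fold, with an adjusted p of 0.0946. It held in 3 of 3 same-numbered pairs, as must follow where no libraries overlap. It passed with DESeq2 (0.0195), with limma voom (0.0013) and when only the 2 types were fitted (0.00279). For YFP-positive cardiac mesoderm it was 0.93 ± 0.30 (0.137). Against hematopoietic mesoderm the differences were 1.00 ± 0.30 for YFP-negative (0.139, and 0.0334 with DESeq2) and 0.78 ± 0.30 for YFP-positive cardiac mesoderm (0.178). Without YFP-positive replicate 3, the library inside the endoderm range, all 4 passed, with differences of 1.15, 1.26, 1.00 and 1.12 in the same order. Of 15259 genes tested in that fit, 183, 159, 93 and 106 passed. The YFP-negative comparisons do not hold that library. Their standard errors fell to 0.19 in that fit, which estimates the spread over all types. Between endoderm and hematopoietic mesoderm Gli3 differed by -0.15 ± 0.30 (0.838), and between the cardiac types by -0.21 ± 0.30 (0.965). Gli3 shares exon bases with Gm6556 on the opposite strand.

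Read as a group, the 6 tested members had a median log2 difference of 1.13 for YFP-negative cardiac mesoderm over endoderm, beside 0.01 for all genes, and all 6 were on the higher side. Smo (0.06 ± 0.29) and Gli2 (0.31 ± 0.59) were higher by less than their standard errors, and only Ptch1 passed. For YFP-positive cardiac mesoderm over endoderm the median was 0.78, beside 0.01 for all genes, and 5 of 6 were higher, with Gli2 lower. Over hematopoietic mesoderm the medians were 0.52 and 0.60 for the YFP-positive and YFP-negative types, beside 0.03 and 0.02 for all genes. Libraries did not overlap for Ptch1, Gli1 and Gli3 in YFP-negative cardiac mesoderm against endoderm, all higher, beside 29.4% of all genes (12.2% higher). Against hematopoietic mesoderm they did not overlap for Ptch1 and Gli3, both higher, beside 18.6% (11.8% higher). In YFP-positive cardiac mesoderm against endoderm they did not overlap for Ptch1, which was higher, and Gli2, which was lower, beside 30.3% of all genes. Between hematopoietic mesoderm and YFP-positive cardiac mesoderm, and between hematopoietic mesoderm and endoderm, the libraries of every tested member overlapped, while 14% and 34.3% of all genes were free of overlap.

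Hematopoietic replicate 3 held the highest value of its type for Ptch1, Gli1, Gli2, Gli3 and Hhip. Smo and Disp1 were highest in replicate 2. Hand1, a cardiac mesoderm marker, was at 47.5, 81.4 and 416.9 CPM in the 3 hematopoietic libraries, beside 302.6 to 383.6 CPM in the cardiac ones. Kdr, Pdgfra, Smarcd3 and Gata4 of the cardiac list were also highest in replicate 3, whereas Mesp1 and Tbx5 were at 0 CPM there. Tal1, a hematopoietic regulator, was at 470.8, 356.4 and 270.5 CPM. Lmo2, Gata1, Runx1 and Pecam1 of the hematopoietic list were also lowest in replicate 3. Cdh5 (101.2, 159.9 and 145.5 CPM) was lowest in replicate 1, and Etv2 (32.5, 28.2 and 42.6 CPM) was highest in replicate 3. The part of other cells in the Hedgehog values of that library was not tested.

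Of 15 genes that control GLI proteins in the cytoplasm, all were tested and 4 passed in any pair, beside 6.82% of all genes tested, each in a comparison with hematopoietic mesoderm. Gnas, which encodes a stimulatory G protein subunit that feeds protein kinase A, was at 35.9, 25.8 and 30.2 CPM in hematopoietic mesoderm. It was at 116.8, 83.7 and 163.6 CPM in YFP-positive and 50.1, 79.0 and 73.7 CPM in YFP-negative cardiac mesoderm, and at 112.6, 98.9 and 121.2 CPM in endoderm. It was higher than in hematopoietic mesoderm by 1.99 ± 0.36 in the YFP-positive type (adjusted p = 0.0177) and by 1.86 ± 0.36 in endoderm (0.0131). The first was lost with limma voom (0.239), with only the 2 types (0.244) and without YFP-positive replicate 3 (0.0679). The second was lost with limma voom (0.0509) and without endoderm replicate 1 or 3. The Gnas locus holds overlapping transcripts on both strands, so its counts are uncertain. Stk36, a kinase that acts with GLI proteins and in cilia, had 0, 1 and 0 counts in hematopoietic mesoderm, 26.2, 50.4 and 15.5 CPM in endoderm (adjusted p = 0.0137) and 4.16, 13.3 and 13.0 CPM in YFP-positive cardiac mesoderm (0.0481, and 0.0507 with the replicate block). The first of these was lost without endoderm replicate 2 (0.0648), and the second in all 12 fits without 1 library. Cul3, a ubiquitin ligase scaffold, and Gsk3b, a kinase that marks GLI proteins for processing, were lower in endoderm than in hematopoietic mesoderm, with log2 differences of -0.70 ± 0.16 (0.0283) and -0.53 ± 0.12 (0.0282). Cul3 was lost in 7 and Gsk3b in 6 of the 12 fits without 1 library. The best expressed of the others were Csnk1a1 (461.6 to 799.8 CPM), Prkar1a (167.1 to 325.5 CPM), Spop (134.2 to 319.5 CPM) and Prkacb (64.1 to 267.5 CPM), with lowest adjusted p-values of 0.208, 0.177, 0.496 and 0.693.

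Of 10 ciliary genes, all were tested and 1, Rpgrip1l of the ciliary transition zone, passed in any pair, beside 6.82% of all genes tested. It was at 78.9, 119.5 and 92.6 CPM in endoderm and 26.3, 25.5 and 33.6 CPM in hematopoietic mesoderm, a log2 difference of 1.77 ± 0.42 (adjusted p = 0.0316, and 0.0504 with the replicate block). It passed in 4 of 7 other fits and in 7 of the 12 without 1 library. The list's median difference was 1.00 between endoderm and hematopoietic mesoderm, beside 0.07 for all genes. Dync2h1, the ciliary retrograde motor and the best expressed of the list, ran from 101.5 to 294.0 CPM, with a lowest adjusted p of 0.155. For Tulp3, Kif3a and Ift88 the lowest adjusted p-values were 0.736, 0.382 and 0.67.

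Of 9 other reported target genes, 7 were tested and Foxf1, Bmp4 and Sfrp1 passed in any pair, beside 6.82% of all genes tested. Foxf1, a forkhead factor of lateral mesoderm, was at 154.8, 161.1 and 56.3 CPM in YFP-positive and 174.5, 211.9 and 128.8 CPM in YFP-negative cardiac mesoderm. It was at 2.39, 0.129 and 0.594 CPM in endoderm and at 0.964, 7.10 and 3.99 CPM in hematopoietic mesoderm. Both cardiac types lay far above the other two in every library. The log2 differences from endoderm were 6.93 ± 0.95 for the YFP-positive (adjusted p = 0.00221) and 7.40 ± 0.97 for the YFP-negative type (0.0019), and both passed in every other fit run. From hematopoietic mesoderm they were 4.92 ± 0.86 (0.0144) and 5.39 ± 0.87 (0.0209), and both were lost with limma voom (0.26 and 0.128) and with only the 2 types (0.117 and 0.0667). The second was also lost in 3 of the 12 fits without 1 library, those without a YFP-negative one.

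Bmp4, a signal of mesoderm, was lower in endoderm than in any mesoderm type. It was at 8.91, 16.6 and 37.3 CPM in endoderm and at 108.0, 189.2 and 94.8 CPM in YFP-positive cardiac mesoderm. In the YFP-negative type it was at 191.9, 152.3 and 135.3 CPM, and in hematopoietic mesoderm at 136.4, 168.0 and 275.3 CPM. The log2 differences were 2.64 ± 0.49 (adjusted p = 0.0166) and 2.93 ± 0.50 (0.0105) for the cardiac types over endoderm and -3.20 ± 0.50 (0.00394) for endoderm over hematopoietic mesoderm. The first was lost without YFP-positive replicate 2 or endoderm replicate 1 or 2, and the second without YFP-negative replicate 1 or endoderm replicate 2, with adjusted p-values up to 0.123 and 0.0728.

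Sfrp1, a secreted Wnt antagonist, had another order. It was at 590.2, 531.4 and 514.0 CPM in endoderm, 205.4, 352.3 and 321.5 CPM in YFP-positive cardiac mesoderm, 38.7, 41.2 and 17.4 CPM in the YFP-negative type and 100.2, 5.89 and 3.36 CPM in hematopoietic mesoderm. Endoderm exceeded hematopoietic mesoderm by 3.91 ± 0.94 (adjusted p = 0.0325, and 0.0905 with only the 2 types), a call lost without any 1 of the endoderm libraries. The YFP-positive libraries all lay above the YFP-negative ones, as for 5.04% of all genes, with an adjusted p of 0.626. Against endoderm the YFP-negative type had an adjusted p of 0.0564, and 8.08e-05 with limma voom and 0.00011 with only the 2 types. Ccnd1, a cell cycle gene, was at 312.5 to 425.1 CPM in the 6 cardiac libraries and at 161.0 to 205.6 CPM in endoderm, with a lowest adjusted p of 0.0709. For the YFP-positive and YFP-negative types against endoderm (0.0724 and 0.123), DESeq2 gave Ccnd1 0.00974 and 0.039 and limma voom 0.0028 and 0.000488. Mycn and Bcl2 had lowest adjusted p-values of 0.112 and 0.698, and for Mycn in the YFP-positive type against endoderm DESeq2 gave 0.031 and limma voom 0.0306. Osr1 had 3.33, 0 and 1.85 CPM and 7.54, 6.59 and 0.579 CPM in the 2 cardiac types and 0 counts in all endoderm and hematopoietic libraries, with a lowest adjusted p of 0.164, and 0.00429 with limma voom for the YFP-negative type against endoderm.

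**Figure D4:**
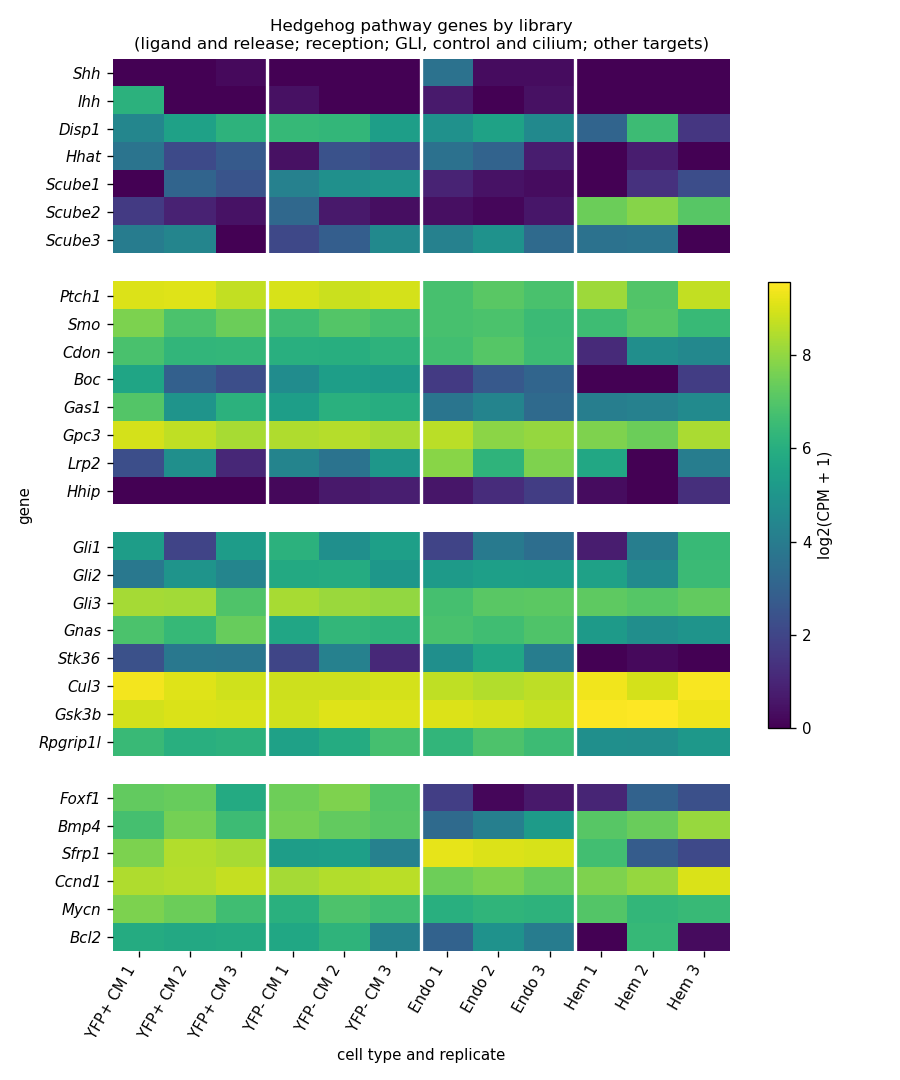
Level of members and other Hedgehog pathway genes as log2 of CPM plus 1 (colour) in each of the 12 libraries (columns, by cell type and replicate number), with genes in rows by role. Foxf1 is brightest in the 6 cardiac mesoderm columns, Scube2 in the 3 hematopoietic (Hem) columns, and Ihh and Shh each in 1 column.

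Over the pathway lists without the members, 41 of 45 genes were tested and 10 passed in at least 1 of the 6 pairs, as did 966 of all 14170 genes tested (6.82%). None of the 10 passed between the cardiac types, where edgeR passed no gene at all. The genes whose levels ran most like Ptch1 over the 12 libraries, among 11012 genes with a mean of at least 5 CPM, were Vldlr, Slc6a6, Rps6ka6, Cdh11 and St6galnac4, with Pearson r of 0.979 to 0.960 on log2 CPM. Foxf1 was 65th (0.813), Gli3 120th (0.765), Bmp4 172nd (0.724) and Gli1 1224th (0.409). These are descriptions over 12 libraries of 4 types that share the sort and the depth of each library. For Ihh the first were Rpf1, Spc24, Kctd10, Fam118b and Zfand5 (r of 0.904 to 0.836), and this order rests on YFP-positive replicate 1, the library that holds its counts.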

How the data were processed

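RNA of 4 sorted types (3 libraries each) was extracted with a nanoscale kit and amplified from low input, per the labels' protocols. The deposited files hold the authors' raw read counts per gene, for 38924 Ensembl genes and 5 summary categories. Reads in no gene (34.5% to 43.6%) and reads not placed uniquely (35.1% to 44.8%) stayed out of library sizes and tests. STAR 2.5.0a, Picard, HTSeq 0.6.0, DESeq2 and build mm10 are named in the submitters' processing notes, without roles. Annotation and strand setting are not given in the sources used here. Groups and replicate numbers came from the titles.

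All 12 libraries were fitted in edgeR 4.0.16 (R 4.3.3) with TMM scaling, its default filter on low counts (14170 genes) and 1 coefficient per type, which left 8 residual degrees of freedom. Quasi-likelihood tests were two-sided, with Benjamini-Hochberg adjustment over the genes of a pair. Each standard error came from the estimate and its F statistic. Symbols matched 37607 genes. Coordinates and exon lengths are from GENCODE M21 (GRCm38). In the most alike pair of libraries, 2.8% of detected genes had equal counts. The procedure was tested on simulated data.

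The 7 other fits used RLE scaling, no filter on low counts, a filter at a mean of 5 CPM, a block for the replicate number, DESeq2 1.42.0, limma 3.58.1 (voom with quality weights) and only the 2 types compared. Each library was also left out in turn. Same-numbered libraries share a date in the deposited file names, which the labels do not explain, and their deviations from the type means correlated at -0.0177 to 0.0319. The genes named were the 9 members, each list gene that passed in a pair and at most 4 others per list by mean CPM; Dhh was added after its values were seen. Members, lists and tests were chosen with earlier results of these data known. 1 further gene, first meant for the reception list, was left out and is not reported here.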

Additional observations from a re-analysis of the deposited data

How the results depend on the processing

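The member count between the cardiac types stayed at 0 in every fit run. In YFP-negative cardiac mesoderm against endoderm the members passing numbered 2 with DESeq2, 3 with limma voom and 2 with only the 2 types. The fit reported gave 1. Of all genes, 4.26%, 12.8% and 1360 of 13472 passed in those other fits, against 1.31%. In YFP-negative against hematopoietic mesoderm 1 member passed with DESeq2, beside 7.49% of all genes, against 0 members and 0.593%. Between endoderm and hematopoietic mesoderm the count was 0 with RLE scaling, limma voom and only the 2 types, against 1. Of all genes, 712 of 14170, 8.65% and 1258 of 12720 passed in those fits, against 5.65%. With the replicate block, which takes same-numbered libraries as pairs, the member count there was also 0, beside 545 of 14170 genes. The block changed no other member's call.

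Leaving out 1 library gave 0 to 2 members for each cardiac type against endoderm, 0 to 1 for each against hematopoietic mesoderm, and 0 to 1 between endoderm and hematopoietic mesoderm. Of the 15012 to 15290 genes tested in those fits, 71 to 405 and 69 to 327 passed for the YFP-positive and YFP-negative types against endoderm. Against hematopoietic mesoderm 106 to 426 and 16 to 247 passed, and between endoderm and hematopoietic mesoderm 180 to 976. Over the fits without 1 library, the log2 difference of Ptch1 between the cardiac types ran from -0.00699 (without YFP-positive replicate 2) to 0.18, and that of Gli3 from -0.43 to 0.11 (without YFP-positive replicate 3). The Gli3 difference between endoderm and hematopoietic mesoderm ran from -0.21 to 0.0062 (without endoderm replicate 1). The cause of these changes was not tested.

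Over all genes, the number passing ranged over the fits from 0 to 100 (0 in the fit reported) between the cardiac types, 71 to 1130 (218) and 69 to 1812 (185) for the YFP-positive and YFP-negative types against endoderm, 13 to 1491 (253) and 10 to 1061 (84) against hematopoietic mesoderm, and 180 to 1869 (800) between endoderm and hematopoietic mesoderm. Shh, Ihh and Hhip did not pass the filter on low counts and were not tested. The common biological coefficient of variation of the fit was 0.852.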
